A study of Mus musculus with 2 samples.

Results

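The cells described here are non-dividing Ly6c2-expressing monocytes of the healing mouse skull. They were chosen cell by cell on measured counts of unique molecular identifiers (UMIs), each of which stands for 1 captured transcript. A cell had at least 2 UMIs of Csf1r, 5 of Ly6c2 and 1 of Ccr2, fewer than 20 of C1qa, C1qb and C1qc together, fewer than 5 of Siglech, and fewer than 3 of Mki67 and Top2a together, with a limit on 1 further gene. Granule proteins of neutrophils (S100a8 and S100a9) had to be under 3% of its UMIs, those of early granulocytes (Mpo, Elane, Prtn3 and Ctsg) under 0.3%, and the collagens Col1a1, Col1a2 and Col3a1 under 1%. This left 373 of 17129 cells, 197 of 9036 in the GA library and 176 of 8093 in the control library. The levels of these 19 genes are therefore a description of the choice and not a result.

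The study made a circular defect of 1.8 mm in the calvaria of male C57BL/6 mice of 2 months (C57BL/6J in the study's methods) and sequenced single cells of the cranial bone around it 7 days later. The piece taken had an edge of about 3 mm per the labels, with the defect in its middle. Gambogic amide (GA), a small molecule, was injected intraperitoneally at 1.2 mg/kg per the labels, in 100 µL of 10% DMSO, every day for 1 week from 24 h before injury, and control mice received 10% DMSO. The study's methods give a higher dose than the labels. Each condition is 1 library pooled from 5 mice, so there are no replicates. No test between the conditions could be made, every interval given below covers counting error at the 95% level only, and treatment cannot be told apart from any other difference between the pools.

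Classical monocytes leave the bone marrow through the chemokine receptor Ccr2, carry the surface antigen Ly6C at a high level and enter injured tissue within days. There they can take up debris, release chemokines and interleukins, and mature into macrophages or into cells that present antigen on MHC class II. A smaller, Ly6C-low population patrols vessel walls and is known for Cx3cr1 and Nr4a1. Bone healing draws on both the inflammatory and the reparative roles of these cells.

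The GA monocytes held 3418175 UMIs with a median of 16536 per cell, and the control monocytes held 2232074 with a median of 11853.5. Over all barcodes the order was the opposite, with medians of 10893 UMIs in the GA library and 15469.5 in the control library. Levels are given as CPM, the UMIs of a gene divided by all UMIs of the monocytes of its library and scaled to 1000000, and a count of 3 UMIs, taken as the floor, is 0.878 CPM in GA and 1.34 CPM in control. The share of mitochondrial UMIs had medians of 3.07% and 2.81%. No barcode was a monocyte in both libraries, although 23 barcodes occurred in both and 2 monocyte barcodes were found in the other library.

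The third marker, F13a1, which encodes the A chain of coagulation factor XIII and was not used to choose the cells, was at 1174 CPM (interval 1138 to 1211) in GA monocytes and 1181 CPM (1137 to 1227) in control monocytes. The same gene was at 18.3 and 13.3 CPM in cells of the B lineage and at 52.3 and 74.9 CPM in Ly6c2-low cells, which had markers of Ly6c2-low monocytes, so the cells of both libraries carried the marker of their name. Macrophages, the Csf1r cells above the limit on C1q genes or on the further gene of the choice, held 872 and 874 CPM of F13a1, and F13a1 alone does not set the monocytes apart from them. Of the genes that made the choice, Ly6c2 was at 1223 and 1573 CPM and Ccr2 at 1100 and 1238 CPM.

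The limit on Ly6c2 cuts through a continuum. Among cells that met every other condition, those just inside it, with 5 to 6 Ly6c2 UMIs, numbered 24 in GA and 21 in control and had F13a1 at 667 and 903 CPM. Those just outside it, with 3 to 4 UMIs, numbered 24 and 25 and had F13a1 at 570 and 643 CPM. With 15 or more UMIs there were 109 and 96 cells, with F13a1 at 1316 and 1286 CPM.

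The monocytes were the same share of all cells in both libraries, and a larger share of the macrophage and monocyte lineage in GA. They were 2.18% (exact interval 1.89% to 2.50%) of GA cells and 2.17% (1.87% to 2.52%) of control cells, a ratio of 1.00 (0.820 to 1.23). Of the Csf1r cells that passed the limits on other lineages, they were 13.7% (12.0% to 15.6%) in GA and 8.66% (7.47% to 9.96%) in control, a ratio of 1.59 (1.31 to 1.92). Macrophages made up 48.4% of the same GA cells and 62.8% of the control cells. The cells of all kinds under the limit on S100a8 and S100a9 numbered 4254 in GA and 6058 in control. Of these the monocytes were 4.63% and 2.91%, so the ratio depended on the denominator. Numbers of cells per defect were not analysed here.

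The share of Ly6c2 cells over the limit on dividing cells was higher in the GA library. Cells that met every condition except the limit on Mki67 and Top2a, a proliferation antigen and a topoisomerase of dividing cells, numbered 400 in GA and 251 in control. The dividing ones were 203 of these in GA, or 50.8% (45.7% to 55.8%), and 75 in control, or 29.9% (24.3% to 36%). Dividing cells were deeper, with medians of 34672 and 26209 UMIs, and a limit set in UMIs is passed more easily by deep cells. Thinning to 10000 UMIs first left out the shallower barcodes, 4409 of 9322 in GA and 3484 of 8718 in control, and kept 128 and 123 non-dividing monocytes. Among the cells kept, the dividing share was 40.2% (33.6% to 47.1%) in GA and 23.6% (17.3% to 30.9%) in control. Mki67 and Top2a are genes of the choice and cells are not replicates, so these shares are a description of 2 libraries. Below that limit, 4 replication and mitosis genes could be compared by the rules given below, with a median log2 ratio of GA over control of 0.43. Of these, 3 were above 0, where 48.4% of all genes were below 0, and 2 were at least 1.5 times higher, against 2.93%. Ube2c, a ubiquitin-conjugating enzyme of mitosis, had 113 UMIs in the GA monocytes and 23 in the control monocytes (1.68). It reached the minimum of 100 UMIs only through GA. Pcna, the replication clamp, was at -0.07.

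**Figure D1:**
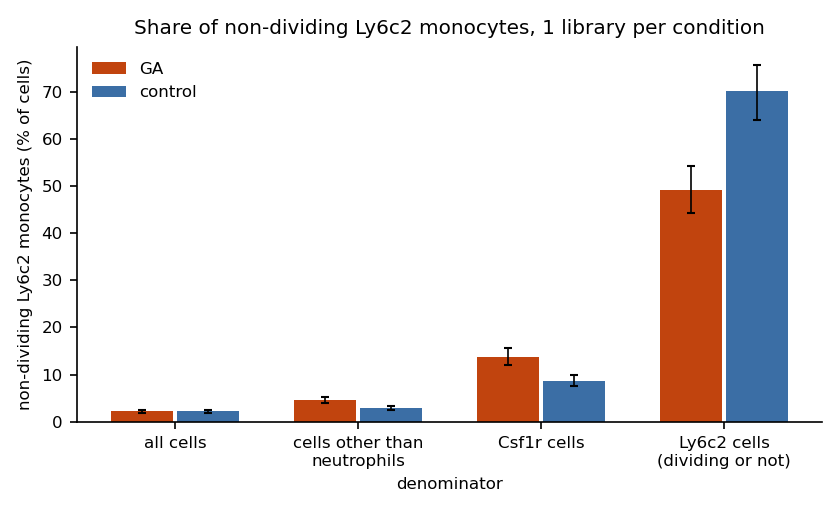
Bars give the share of non-dividing Ly6c2 monocytes in percent of the cells named on the horizontal axis, with exact 95% intervals, for GA and control. The libraries coincide over all cells (2.18% and 2.17%), GA is higher over Csf1r cells (13.7% and 8.66%) and lower over all Ly6c2 cells, dividing or not (49.2% and 70.1%).

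Between the conditions, most genes of the monocytes differed little. With at least 100 UMIs over both libraries, 6137 genes were compared, leaving out the genes used to choose the cells. A gene low in 1 library could reach this minimum through the other library alone. The log2 ratio of GA over control had a median of 0.01 and its 10th and 90th percentiles were at -0.39 and 0.36. A gene was counted as higher or lower when its CPM differed at least 1.5-fold, which 180 genes (2.93%) did upward in GA and 242 (3.94%) did downward. From here on, values given in pairs are GA first and control second, and a single value after them, in parentheses or alone, is the log2 ratio with its interval where one is given. When genes found in fewer than 20 monocytes, or with over 25% of a library's UMIs in 5 cells, were set aside, 61 of 5062 genes were higher and 105 were lower.

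**Figure D2:**
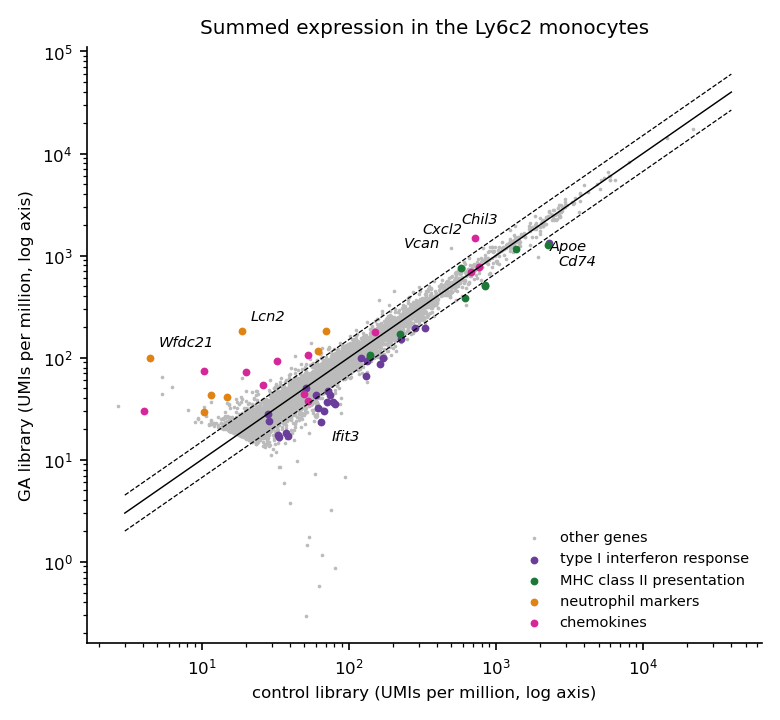
Each point is 1 of 6136 genes, with its level in control monocytes (horizontal) and GA monocytes (vertical) in CPM on log axes, and dashed lines mark 1.5-fold. Colours mark interferon (purple), MHC class II (green), neutrophil (orange) and chemokine (pink) genes. 1 gene listed at 0 in a library is not drawn. Most genes lie between the lines.

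Type I interferon response genes were lower in the GA monocytes as a group. This list of antiviral effectors, sensors and their regulators held 26 genes that could be compared. All 26 had a ratio below 0, where 2973 of the 6137 genes (48.4%) did, and 17 were at least 1.5 times lower and 0 higher, against 3.94% and 2.93% of all genes. The median log2 ratio was -0.80, and over the alternatives that kept dividing cells out it lay between -0.93 and -0.66. Summed over the 28 list genes in the matrix, the level was 2902 CPM (2845 to 2960) in GA and 4878 CPM (4786 to 4970) in control.

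Among the effectors, Ifit3, which binds viral RNA in a complex with its relatives, had 80 UMIs from 21 monocytes in GA and 144 from 30 in control. That is 23.4 against 64.5 CPM, a log2 ratio of -1.46 (-1.88 to -1.06), and 5 cells held 63.8% of its UMIs in GA and 60.4% in control. Ifit1, of the same family, differed by only -0.02. Ifi27l2a, the most abundant gene of the list, was at 1316 CPM in GA and 2289 CPM in control (log2 ratio -0.80), and Rsad2, or viperin, which blocks viral replication, was at 30.1 and 67.7 CPM (-1.17). Both of these were chosen after their values were seen.

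The sensors and signalling genes were spread over more cells. Stat2, a subunit of the transcription factor that interferon activates, was at 34.8 CPM in 62 GA cells and 80.2 CPM in 67 control cells (-1.20, -1.55 to -0.86), with 29.4% and 25.7% of its UMIs in 5 cells. Ddx58, which encodes the RNA sensor RIG-I, was at 31.9 and 61.4 CPM (-0.94, -1.32 to -0.57). The chemokine Cxcl10, also induced by interferon, was at 50.3 and 51.5 CPM, a log2 ratio of -0.03. The lower level was therefore seen both in genes of few cells and in genes of many, with Ifit1 and Cxcl10 at the top of the list near 0.

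Interferon acts through a promoter element bound by a complex that contains Stat2 and Irf9. The core letters of this element, GAAANNGAAA with N for any base, were searched on both strands from 250 bases before to 50 after the start of each gene in RefSeq. They occurred in 1131 of 32851 such windows (3.44%) and for 231 of the 4963 compared genes with an entry (4.65%). Of the interferon list, 20 of 26 genes had an entry and 12 of these (60%) held the letters, and among the 15 lower genes with an entry 7 did (46.7%). The 250 bases before the start are shown for 3 of the lower genes, because they hold these letters. They lie at chr19:34583279-34583528 for Ifit3 (plus strand), chr12:26456453-26456702 for Rsad2 (minus strand) and chr10:128270248-128270497 for Stat2 (plus strand) in GRCm38.p6. Each is written 5′ to 3′ along its gene, with the matched letters, here on the opposite strand, in capitals.
Ifit3: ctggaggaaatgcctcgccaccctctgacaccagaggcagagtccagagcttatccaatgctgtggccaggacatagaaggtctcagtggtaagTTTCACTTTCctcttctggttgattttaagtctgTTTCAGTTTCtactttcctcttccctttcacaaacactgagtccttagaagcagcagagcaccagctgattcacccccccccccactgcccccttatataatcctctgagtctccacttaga
Rsad2: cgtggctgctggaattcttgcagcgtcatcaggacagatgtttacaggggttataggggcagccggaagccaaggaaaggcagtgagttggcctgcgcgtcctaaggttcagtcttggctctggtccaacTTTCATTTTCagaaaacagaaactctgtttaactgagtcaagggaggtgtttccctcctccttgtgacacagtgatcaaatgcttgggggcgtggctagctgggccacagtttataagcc
Stat2: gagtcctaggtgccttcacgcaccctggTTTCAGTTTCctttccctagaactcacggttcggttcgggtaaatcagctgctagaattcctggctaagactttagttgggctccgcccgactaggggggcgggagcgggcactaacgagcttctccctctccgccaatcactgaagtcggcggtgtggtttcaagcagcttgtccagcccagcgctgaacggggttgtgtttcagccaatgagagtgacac
Ifit3 held 2 matches, which began 156 and 122 bases before the gene start, Rsad2 held 1 at 120 bases, and Stat2 held 1 at 222 bases. A match describes the letters only, and binding was not measured in these data.

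The direction in the monocytes was opposite to that in macrophages and mesenchymal cells of the same libraries. In macrophages all 26 interferon genes were above 0, 25 of them at least 1.5 times higher in GA where 2.72% of genes were, and the median log2 ratio was 1.17, with 5044 CPM in GA against 2345 CPM in control. In dividing Ly6c2 cells the median was -0.73, with 14 of 24 genes with at least 20 UMIs lower, against 2.44% of all genes there. Mesenchymal cells had a median of 1.20 with 23 of 26 genes higher, against 5.47%, cells of the B lineage had -0.24, and neutrophils had -0.0033. In Ly6c2-low cells the median was -0.43 with 11 of 23 genes lower, against 9.17%. These 51 GA and 49 control cells also held osteoclast markers, at 1847 CPM in GA and 9475 CPM in control with Ctsk the most abundant and none of the 4 at 0. Without their 8 and 13 cells with at least 5 UMIs of these markers, the interferon median of the group was -0.067 over 17 genes. Stat2, for one, was lower in GA monocytes and had a log2 ratio of 0.89 in macrophages. The difference between the cell types could not be tested with 1 library per condition.

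**Figure D3:**
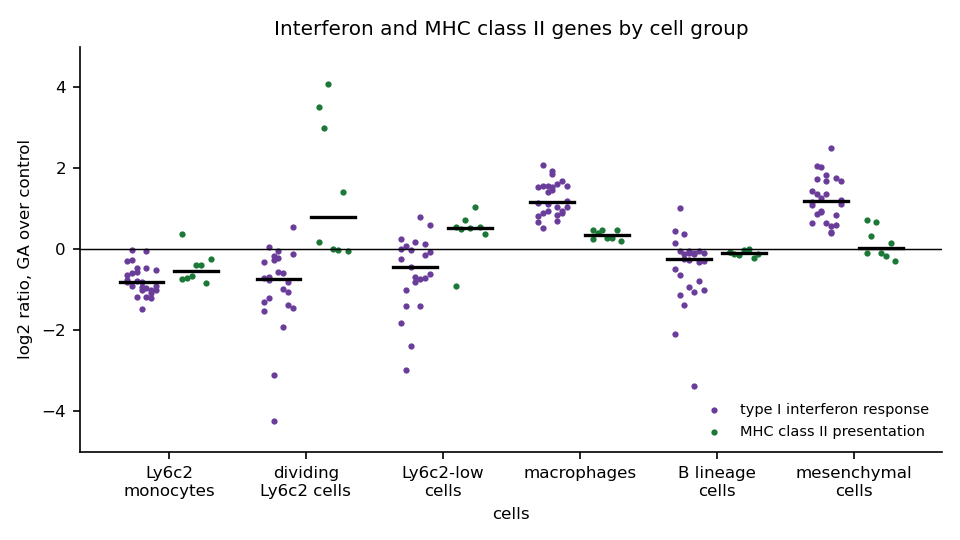
Each point is the log2 ratio of GA over control (vertical axis) of 1 type I interferon gene (purple) or MHC class II gene (green) in 1 cell type, with a black bar for the median of the list. Genes at 0 in 1 library count in the median and are not drawn. The interferon genes of monocytes lie below 0 with a median of -0.80 and those of macrophages above 0 with a median of 1.17, and the MHC class II medians are -0.53 in monocytes and 0.81 in dividing Ly6c2 cells.

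Within each library the interferon genes varied widely from cell to cell. After every monocyte was thinned to 5000 UMIs, which all 373 cells reached, the summed list had a median of 11 UMIs per GA cell, with the 10th and 90th percentiles at 2 and 32. In control cells the median was 19 UMIs, with these percentiles at 7 and 49. The 20 GA cells with the most held 33.7% of the list's UMIs and the 18 control cells with the most held 31.1%. The lower level in GA was thus seen at the bottom, the middle and the top of the distribution.

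**Figure D4:**
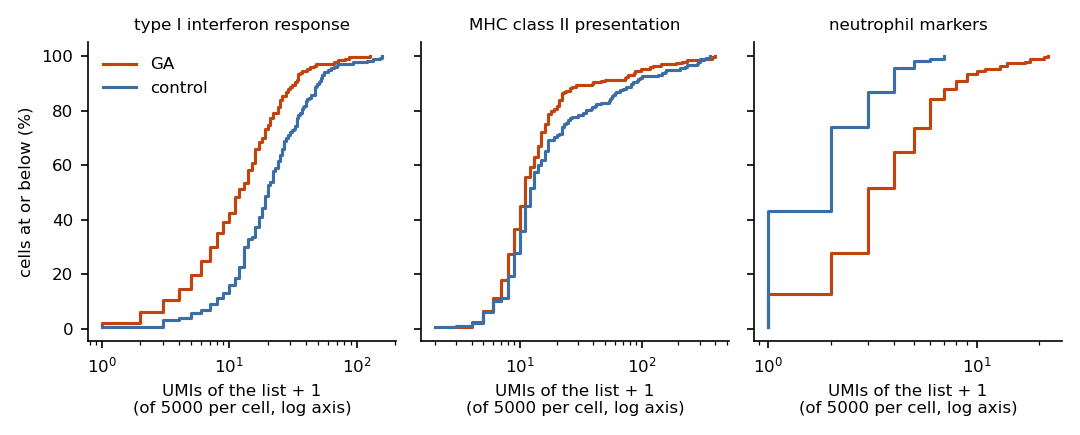
Cumulative curves of the monocytes of each library, with the UMIs of a gene list plus 1 per cell thinned to 5000 UMIs on the horizontal log axis and the percent of cells at or below that value on the vertical axis. The interferon curve of GA lies to the left of control along most of its length (medians of 11 and 19 UMIs), the MHC class II curves part above their medians of 10 and 11, and the neutrophil marker curve of GA lies to the right.

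Genes that answer to interferon gamma differed less. Of 10 compared, all were below 0 with a median of -0.14, against 48.4% of all genes below 0, and 3 were at least 1.5 times lower, against 3.94%. Irgm1, an immunity-related GTPase, was at 28.7 and 56.9 CPM (-0.99), and Nlrc5, the activator of MHC class I genes, was at 24.9 and 47.9 CPM (-0.95). Gbp7 and Cd274, which encodes PD-L1, were at -0.08 and -0.00.

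MHC class II presentation was lower in GA monocytes, in 4 of 8 compared genes past 1.5-fold, against 3.94% of all genes, and 7 of 8 below 0, against 48.4%, with a median of -0.53. The list summed to 4887 CPM in GA and 6894 CPM in control. Cd74, the invariant chain that escorts class II molecules, was at 1268 and 2270 CPM (-0.84, -0.90 to -0.78). H2-Aa, an α chain, was at 503 and 839 CPM (-0.74), and 5 cells held 62.5% of its UMIs in GA and 42.2% in control. Ctss, the protease that trims Cd74, was at -0.23, and Ifi30, a thiol reductase of antigen processing, went the other way at 0.37.

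The MHC class II difference lay in the upper tail of the cells. At 5000 UMIs the typical cell was alike, with medians of 10 UMIs in GA and 11 in control, while the 90th percentiles were 38.4 and 82.5 UMIs. A UMI of H2-Aa was seen in 12.7% of GA and 25% of control monocytes, which is below the 30.1% and 33.7% seen in B-lineage cells, themselves class II positive. Without thinning, 32 GA and 49 control monocytes held one. Of the 7 markers of conventional dendritic cells, which summed to 48.6 and 78.9 CPM with Cd209a the most abundant and 1 GA marker at 0, at least 5 UMIs were found in 5 GA and 11 control cells. Without those cells, the median of the MHC class II list was -0.82, and without cells holding at least 5 UMIs of B-lineage, T and NK cell, endothelial, pericyte, mesenchymal, erythroid, mast cell or osteoclast markers it was -1.13. With at least 10 Ly6c2 UMIs required it was -0.35. In dividing Ly6c2 cells the same list had a median of 0.81, in macrophages 0.35 and in Ly6c2-low cells 0.53, or -0.019 without those holding osteoclast markers.

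The 12 classical monocyte genes centred on a log2 ratio of 0.07, close to the median of 0.01 over all genes, and 1 of them was higher past 1.5-fold, against 2.93% of all genes. Vcan, which encodes the matrix proteoglycan versican, was at 1177 CPM (1141 to 1214) in GA and 495 CPM (466 to 525) in control, a log2 ratio of 1.25 (1.15 to 1.35). The gene lies at chr13:89655312-89742509 on the minus strand (mm10). At 5000 UMIs, 81.2% of GA cells and 54.0% of control cells held a Vcan UMI, against 1.36% and 2.63% of B-lineage cells, whose median depths before thinning were 6875 and 6424 UMIs. Without thinning, 176 GA and 115 control monocytes held one. The log2 ratio was 1.03 in dividing Ly6c2 cells, -0.20 in macrophages and 1.65 in Ly6c2-low cells, or 1.11 without those holding osteoclast markers. The difference between the cell types was not tested.

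Chil3, a chitinase-like protein of monocytes, was at 1786 and 1254 CPM (0.51), in 74.6% and 61.9% of cells at 5000 UMIs. In B-lineage cells it was at 203 and 6.93 CPM, which also differed between the libraries. Ms4a4c was at -0.54 and lysozyme (Lyz2) at -0.34. Of 10 genes known from Ly6c2-low monocytes, 3 were lower past 1.5-fold, against 3.94% of all genes, and 7 were below 0, against 48.4%, with a median of -0.17. Cx3cr1, the fractalkine receptor, was at 106.5 and 195.3 CPM (-0.88, -1.08 to -0.67) and was found in 34.5% and 49.4% of cells at 5000 UMIs, against 2.04% and 1.84% of B-lineage cells, and in 116 and 126 cells without thinning. Pparg, a nuclear receptor of lipid metabolism, was at 11.1 and 29.6 CPM (-1.41), and Ear2, a ribonuclease, was at 0.39. Pparg reached the minimum of 100 UMIs only through control, so the count of 3 lower genes partly follows from that minimum.

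Neutrophil granule transcripts were higher in the GA monocytes and in cells that do not make them. All 7 compared genes of the 12 neutrophil markers were at least 1.5 times higher, against 2.93% of all genes, with a median of 1.52. Of these, Retnlg, Camp, Ngp and Wfdc21 reached the minimum of 100 UMIs only through GA, so that count partly follows from the minimum. Their levels were 43.0, 29.5, 41.0 and 100.1 CPM in GA and 11.6, 10.3, 14.8 and 4.48 CPM in control. The list summed to 731 CPM (702 to 760) in GA and 202 CPM (184 to 222) in control, Mmp8 was its most abundant gene in both, and Ly6g had 7 UMIs in GA and 0 in control. In B-lineage cells the same list summed to 2816 CPM in GA and 303 CPM in control. Of the genes used to choose the cells, S100a8 was at 1143 and 84.7 CPM.

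The genes differed in how their level compared with that of B-lineage cells of the same library, to which the limit on S100a8 and S100a9 was not applied. Lcn2, an iron-binding granule protein, was at 182 and 18.8 CPM in monocytes (3.28) and at 340 and 34.5 CPM in B-lineage cells, so that monocytes held 0.537 and 0.546 times the B-lineage level. Wfdc21 was at 100.1 and 4.48 CPM (4.48, 3.58 to 5.55), with 139 and 15.6 CPM in B-lineage cells. Camp and Ngp, antimicrobial granule proteins, were at 29.5 and 10.3 CPM (1.52) and 41.0 and 14.8 CPM (1.47), far under their B-lineage levels of 795 and 892 CPM in GA. All 4 were below the level of B-lineage cells of their own library, at ratios in GA from 0.0371 for Camp to 0.720 for Wfdc21.

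Mmp8, a collagenase of neutrophils, was above the B-lineage level. It was at 183 and 70.3 CPM in monocytes (1.38, 1.13 to 1.64) and at 30.4 and 11.8 CPM in B-lineage cells, which is 6.02 and 5.97 times the B-lineage level. Trem3, an activating receptor, was at 104.7 and 43.0 CPM (1.28, 0.96 to 1.62) against 11.3 and 2.06 CPM. That is 9.28 times the B-lineage level in GA and 20.8 times in control. Il1r2, the decoy receptor for interleukin-1, was at 115 and 62.3 CPM (0.88, 0.60 to 1.17) and held 4.31 and 4.06 times the B-lineage level. A Mmp8 UMI was seen in 51.8% and 25% of monocytes at 5000 UMIs, against 3.85% and 1.84% of B-lineage cells. Since the B-lineage level of Mmp8, Trem3 and Il1r2 was also higher in GA, the part of free RNA in their difference was not tested.

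Chemokines had the largest positive median of the lists after neutrophil markers, 1.03 over 12 genes with 7 higher past 1.5-fold against 2.93% of all genes, but for most of these genes few cells carried it. Cxcl2, a neutrophil attractant and the most abundant in GA, had 5115 UMIs from 118 monocytes in GA and 1603 from 74 in control, or 1496 and 718 CPM (1.06). At 5000 UMIs, 45.7% of GA and 28.4% of control monocytes held a Cxcl2 UMI, against 8.82% and 10.3% of B-lineage cells. Cxcl3 was at 73.7 and 10.3 CPM (2.84) in 21 and 8 cells. Ccl8, a monocyte attractant, had 103 UMIs from 9 monocytes in GA and 9 from 5 in control. Ccl8 and Cxcl3, the latter with 252 and 23 UMIs, reached the minimum of 100 UMIs only through GA. The count of 7 and the median of the list partly follow from that minimum. Without the 5 cells with the most UMIs of each gene, the median was 0.12, and with dividing cells included it was -0.0066. Cxcl1 and Cxcl16 were at -0.49 and -0.17.

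Of 16 genes of cytokines and NF-κB signalling, 1 was higher past 1.5-fold, near the 2.93% of all genes, and the median was 0.12. Above 0 were 12 of the 16, where 48.4% of all genes were below 0. Il1b, the interleukin-1β gene, was at 1547 and 1525 CPM (0.02). Il6 was at 79.6 and 40.8 CPM (0.96), with 61.8% and 65.9% of its UMIs in 5 cells, and at -0.11 with dividing cells included. Tnf was at -0.48, and Tnfaip3, which restrains NF-κB, at 0.50. Across cells at 5000 UMIs the chemokine and the inflammatory sums had a Spearman correlation of 0.42 in 197 GA cells and 0.33 in 176 control cells, within 1 library each.

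None of 18 growth factor and cytokine receptors passed 1.5-fold in either direction (median -0.09), where 2.93% of all genes were higher and 3.94% lower, with Il17ra at -0.39 and Csf2rb, the shared chain of the GM-CSF receptor, at 0.26. Of 13 adhesion genes none passed either (0.04). Among 8 chemoattractant receptors Cx3cr1, already described above, was the only gene past the fold, against 3.94% of all genes lower. Tlr4, the receptor for endotoxin, was at 76.4 and 45.3 CPM (0.75, 0.42 to 1.10), while Tlr7 and Tlr13, which sense RNA, were at -0.14 and -0.11. Of 13 genes of uptake and scavenging, Mrc1, the mannose receptor, was at 28.1 and 60.5 CPM (-1.11), Axl, which clears dying cells, at -0.98 and Fcgr1 at -0.68, the 3 that were lower, against 3.94% of all genes. Clec4e, a receptor for damaged cells, was at 0.56.

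Of 4 compared markers of C1q macrophages, Mrc1, already described above, and Apoe were lower past the fold and Pf4 was higher, against 3.94% and 2.93% of all genes. The list's median was -0.28, and it ran from -0.99 to 0.42 over the alternatives that kept dividing cells out. The 7 markers summed to 1170 CPM in GA and 2077 CPM in control, nearly all of it Apoe, an apolipoprotein, at 972 and 1928 CPM (-0.99), and 1 marker was at 0 in each library. Trem2, a lipid receptor, was at 0.42, and Pf4 was at 73.1 and 20.2 CPM (1.86) with 86.4% of its GA UMIs in 5 cells, at -0.11 without them. The part of maturing cells or of free RNA in these values was not tested.

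Markers of several further cell types sat in few of the monocytes. The 9 B-lineage markers summed to 7.90 CPM in GA, with 5 at 0, and to 128 CPM in control, with 2 at 0, where 2 cells held at least 5 UMIs and 1 of them 209. Ebf1 alone was at 1.17 and 65.4 CPM. The 9 T and NK cell markers summed to 39.2 and 112 CPM, and Gzma had 2 UMIs in GA and 140 in control, in 2 cells each. Mesenchymal markers summed to 60.3 and 130 CPM, led by Sparc, with at least 5 UMIs in 1 GA and 7 control cells. Markers of endothelium, pericytes, erythroid cells, mast cells and osteoclasts each summed to 33.1 CPM or less in both libraries, those of early progenitors to 72.0 and 60.5 CPM, and those of plasmacytoid dendritic cells to 163 and 235 CPM, nearly all of it Tcf4, with at least 5 UMIs in 43 GA and 28 control cells. Without the cells that held at least 5 UMIs of any of these lists other than early progenitors and plasmacytoid dendritic cells, 186 GA and 162 control monocytes remained and the interferon median was again -0.80.

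Of 16 matrix and wound repair genes 13 were above 0 and 3 below, where 48.4% of all genes were below 0, with a median of 0.14. Past the fold, 3 were higher and 1 lower, against 2.93% and 3.94% of all genes. The neutrophil marker Mmp8, described above, was 1 of the 3 higher genes. Another, Gpnmb, had 177 GA and 14 control UMIs and reached the minimum of 100 UMIs only through GA. Areg, a growth factor for epithelium and mesenchyme, was at 47.4 and 23.3 CPM (1.02), with 79.0% and 88.5% of its UMIs in 5 cells. Gpnmb was at 3.05, with 93.8% of its GA UMIs in 5 cells, and Timp1, an inhibitor of metalloproteinases, was at -1.04 and at 0.14 when barcodes were thinned to 10000 UMIs. The abundant matrix genes Thbs1 and Fn1 were at 0.41 and 0.12, and Tgfb1 at -0.23.

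Among metabolic genes, Slc7a11, the cystine transporter, was at 327 and 189 CPM (0.79, 0.63 to 0.96), the 1 gene of 12 antioxidant and iron genes past 1.5-fold, against 2.93% of all genes higher. Of these 12 genes 11 were above 0, where 48.4% of all genes were below 0, and the median was 0.27. Srxn1, which repairs oxidised peroxiredoxins, was at 0.58 and ferritin heavy chain (Fth1) at 0.01. Gclc, of glutathione synthesis, was the only one below 0, at -0.51. The 22 glycolysis and hypoxia genes had a median of 0.06 with Bnip3, a mitophagy receptor, the only one lower (-0.92), against 3.94% of all genes, and Gapdh at 0.40. Of 17 lysosomal genes 2 were higher, against 2.93% of all genes, among them cathepsin D (Ctsd), at 0.59. None of the 12 mitochondrially encoded genes, the 6 NADPH oxidase genes or the 9 heat shock genes passed the fold. Over all genes 2.93% were higher and 3.94% lower, so lists of this size would seldom hold such a gene.

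Of 5 lipid mediator genes 2 were higher, against 2.93% of all genes. Ptger2 reached the minimum of 100 UMIs only through GA, so that count partly follows from the minimum. Ptger2, a receptor for prostaglandin E, was at 35.1 and 15.2 CPM (1.20, 0.64 to 1.8), and Lta4h, which makes leukotriene B, was at 55.0 and 31.8 CPM (0.79, 0.39 to 1.20). Ptger4, another receptor for the same ligand, was at 0.10. Of 15 myeloid transcription factors only Cebpa was past the fold, against 3.94% of all genes lower, at 36.9 and 60.5 CPM (-0.71, -1.08 to -0.35), with Irf8 at -0.48 and Spi1 at -0.16. Egr1, an immediate early gene, was at 60.9 and 29.1 CPM (1.06), while Fos and Junb were at 0.07 and 0.09. Ifitm1 was at 140.1 and 55.6 CPM (1.33) and its relatives, Ifitm3 and Ifitm2, were at -0.44 and -0.16.

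**Figure D5:**
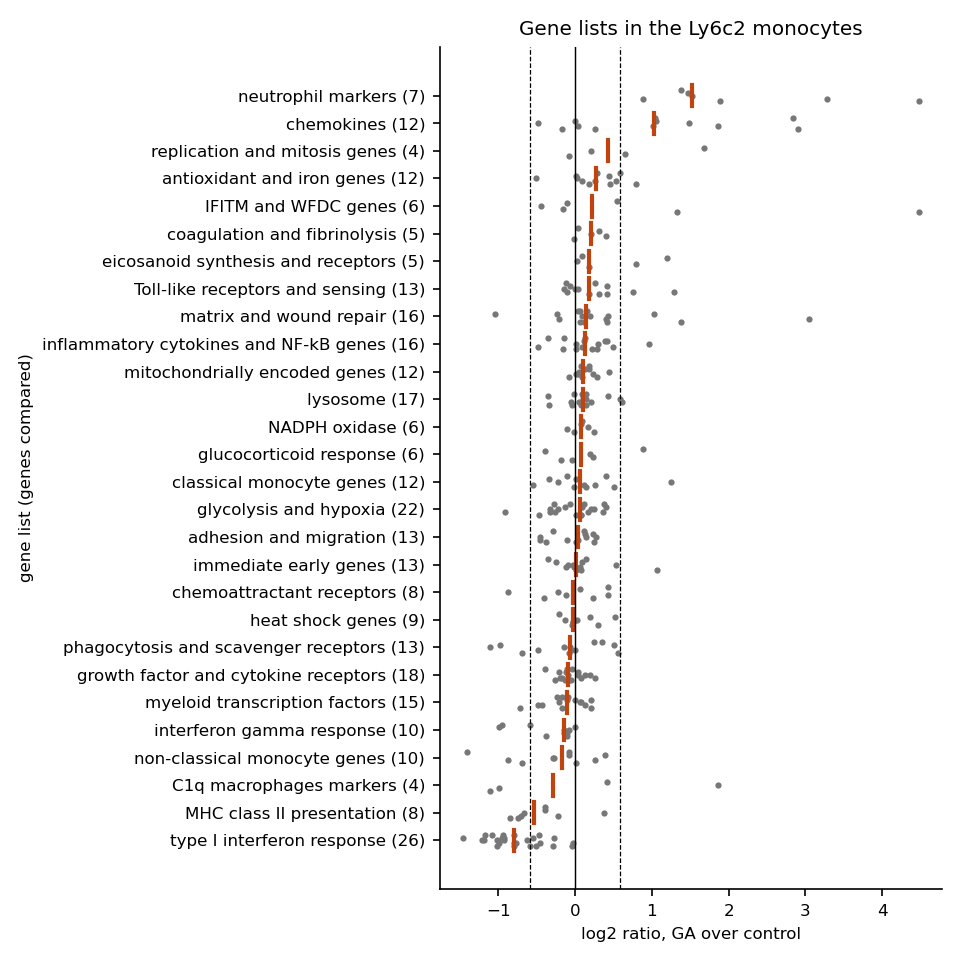
Each row is 1 gene list, with the number of genes compared in brackets. Each grey point is 1 gene, with its log2 ratio of GA over control in the monocytes on the horizontal axis, the red bar is the list's median and the dashed lines mark 1.5-fold. The interferon list lies below 0 throughout (median -0.80), and the neutrophil markers lie above 0 (1.52).

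Among genes in at least 20 monocytes and with at most 25% of either library's UMIs in 5 cells, the 10 with the highest ratio included Camp, Mmp8, Ngp and Trem3. Of these, Camp and Ngp reached the minimum of 100 UMIs only through GA, so their place partly follows from that minimum. A low level in 1 library makes the limit of 25% easier to exceed, and Vcan, with 26.4% of its control UMIs in 5 cells, was left out by it. The rest of them were Ptgr1, a prostaglandin reductase (1.08), Hsd11b1, which activates glucocorticoids (1.05), Agtrap (1.04), and Pdia4 (0.98), Rpn1 (0.92) and Chid1 (0.90), of which Pdia4 folds and Rpn1 glycosylates proteins in the endoplasmic reticulum. Rpn1 was the deepest of these, with 422 UMIs in 152 GA cells and 146 in 91 control cells. At the other end were Ddx58, Irgm1 and the less described Gm20559 (-1.18), Gm12185 (-0.95), Gm35853 (-1.43) and Gm37494 (-0.94). The rest were Clec2i, a lectin, at 36.3 and 82.4 CPM (-1.18, -1.52 to -0.85), Xpo4, an export receptor (-1.06), Cfl2, a cofilin (-1.03), and Rsbn1 (-0.93). Of the neurotrophin and hedgehog receptors, only Sort1, which binds pro-neurotrophins, had enough UMIs to compare, and its log2 ratio was 0.04.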

How the data were processed

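The deposited files hold raw UMI counts per gene and barcode for 2 libraries of the 10x Chromium 3′ assay, aligned to mm10 and counted by the authors with Cell Ranger (7.0.1 per the file headers; the study's methods name another version). The GA matrix sums to 182949385 UMIs in 9322 barcodes and the control matrix to 214993030 in 8718. Barcodes with 500 to 140000 UMIs, 200 to 9500 genes and at most 15% mitochondrial UMIs were kept.

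The members, the gene lists and the rules were chosen with earlier results of these data known. The UMIs of a gene over all monocytes of a library were taken as CPM of their sum, with exact Poisson intervals. Log2 ratios carry exact conditional binomial intervals and shares exact Clopper-Pearson intervals. Cells of the B lineage had at least 10 UMIs of Cd79a and Cd79b and no Csf1r or Cd3e. Ly6c2-low cells had fewer than 2 Ly6c2 UMIs and at least 2 of Ace, Treml4, Cd300e and Eno3. The study's pseudobulk test was not run, because each condition has 1 library.

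Named genes are those of the rule, the markers, the 2 highest and 2 lowest of each list and the 10 highest and 10 lowest genes spread over cells. Genes named outside this rule, such as Il1b, Cxcl2, Areg, Fcgr1, Thbs1, Fn1, Fos, Junb and Spi1, were chosen after their values were seen. Scrublet (scanpy 1.11.5) called 0 and 39 barcodes (0.447%), which is not a working call. As an alternative, the 695 and 608 barcodes with the highest scores were left out, 6 and 5 of them monocytes. The steps were tested on simulated data. Python 3.11.15, SciPy 1.17.1 and, for TMM factors, edgeR 4.0.16 were used. Gene positions are those of GENCODE vM21. Some genes that meet the rule are not reported here.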

Additional observations from a re-analysis of the deposited data

Results flagged for a closer look

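Each value here was picked out because the log2 ratio of GA over control went one way in the monocytes and the other way in another cell type of the same libraries. With 1 library per condition, the difference was not tested.

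Among lists, the type I interferon median was -0.80 in monocytes and 1.17 in macrophages, and the MHC class II median was -0.53 in monocytes and 0.81 in dividing Ly6c2 cells. The chemokine median was 1.03 in monocytes, -0.49 in dividing Ly6c2 cells and -0.04 in Ly6c2-low cells. Chemoattractant receptors had a median of -0.029 in monocytes and 0.79 in Ly6c2-low cells, and mitochondrially encoded genes had 0.11 and -0.70. The Ly6c2-low cells held 1847 CPM of osteoclast markers in GA and 9475 CPM in control. Without the cells holding at least 5 UMIs of these, their medians were 0.13 for chemokines, 0.94 for chemoattractant receptors and -0.25 for mitochondrially encoded genes.

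Among genes, the monocyte and macrophage log2 ratios were -1.46 and 1.85 for Ifit3, -1.20 and 0.89 for Stat2, -0.94 and 1.04 for Ddx58, -0.99 and 0.97 for Irgm1, -1.18 and 0.80 for Gm20559, and -0.95 and 0.69 for Gm12185. Mrc1 was at -1.11 and 0.73, Slc7a11 at 0.79 and -1.18, and Gpnmb at 3.05 and -0.74. Ebf1 was at -5.80 and 2.45 and Gzma at -6.74 (-9.80 to -4.86, from 2 UMIs in GA) and 0.83. In control, 5 monocytes held 98.6% of the Ebf1 UMIs and 2 held all of the Gzma UMIs. Slc7a11, unlike Gpnmb, Ebf1 and Gzma, was found in 99 GA and 54 control monocytes.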

How the results depend on the processing

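No paired analysis was possible because each condition is 1 library. The count of genes at least 1.5 times higher in GA, 180, was 112 with barcodes thinned to 10000 UMIs and shallower ones left out, 332 with no limit on Mki67 and Top2a, 323 without the 5 cells with the most UMIs of each gene, 3009 with no minimum count and 31 with at least 500 UMIs. The count of lower genes, 242, was 135 after thinning, 4154 with no minimum count and 39 with at least 500 UMIs. Fewer genes entered after thinning (3934) and more with no limit on dividing cells (8743). Without that limit the interferon median was -1.29, the chemokine median -0.0066, the ratio of shares of all cells 1.43 and that of Csf1r cells 2.26. The ratio was 1.59 with all cells over the limit on S100a8 and S100a9 left out. The chemokine median was 0.54 after thinning, 0.12 without the 5 cells and 0.15 with at least 500 UMIs, and the neutrophil marker median was 2.35 after thinning. The T and NK marker median, over 2 genes, reversed to 0.90 without the highest Scrublet scores and to 1.18 without the 5 cells. Single genes that reversed were Il6 (-0.11 with dividing cells), Pf4 (-0.11 without the 5 cells) and Timp1 (0.14 after thinning). The causes were not tested. Of the values recomputed for named genes, 1540 stayed within the main interval, 193 moved and 3 reversed, and of those for lists 480, 56 and 3, where reversed means that a value past 1.5-fold changed sign. Smaller values could also cross 0, such as the C1q macrophage marker median (-0.28, up to 0.42). Leaving out cells with markers of other lineages, or of dendritic cells, and Ly6c2-low cells with osteoclast markers, was chosen after seeing the data. TMM factors moved all genes by 0.03. Genes with few UMIs, and lists carried by a few cells, are limited by depth.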
